A study of Mus musculus with 12 samples.

Results

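The cytosolic ribosomal proteins are the protein subunits of the ribosome that translates nuclear-encoded mRNA. Their mRNAs were followed in intestinal stem cells (ISCs) sorted from the mouse small intestine. Members were the genes whose symbol is Rpl or Rps followed by digits and at most 1 letter a, l or x, together with Rplp0, Rplp1, Rplp2 and Rpsa, and no symbol marked as a pseudogene. The rule found 82 of the 47729 genes in the count table, and 79 of them passed the filter on low counts. The rule leaves out genes that encode ribosomal proteins under other symbols, of which Rps3a1, Rpl36al and Fau are given separately.

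The 12 libraries fall into 4 groups of 3. All mice carried the Lgr5-EGFP-IRES-CreERT2 knock-in, in which the Lgr5 promoter drives EGFP and a tamoxifen-inducible Cre, so the EGFP-high gate selects cells by activity of that promoter. The Ctrl group was not restrained, and the stress group, per the study's text, was exposed once to restraint in a ventilated tube. The labels call this group CRS, the study's abbreviation for chronic restraint stress. In the study's chronic protocol, unrestrained controls went without food and water while the others were restrained. Whether this held for the single exposure is not stated. The CORT group received 1 intraperitoneal injection of corticosterone, the main glucocorticoid of mice, in a cyclodextrin solution, and the vehicle group received the solution alone. According to the study's methods the mice were young adults of both sexes, without the sex of each library, and the sorted cells were live, EpCAM+ and CD24-, and negative for CD31, CD45 and TER119. In the stress group the replicate numbers are 1+2, 3 and 4+5+6. Joined numbers may mean pooled mice, which the labels leave unsaid. The libraries held between 15934907 and 17135770 estimated counts in the Ctrl and stress groups, between 16465961 and 31280267 in the vehicle group and between 29426183 and 69533214 in the CORT group. The labels do not say whether the libraries of a group came from separate experiments, so p-values measure only the spread between these samples. The ISC markers were present in every library, with Olfm4 as the most abundant and summed levels of the 6 markers between 10670 and 13930 CPM (counts scaled by library size, as edgeR gives them). Most of that sum was Olfm4. Of the 6, 1 was called in stress (1.89% of all genes were), and 3 were called lower in CORT (4.5% of all genes were). Ascl2, a transcription factor of ISCs, was called lower in stress (-1.23 ± 0.10 (SE), adjusted p 0.000336, edgeR), and Ascl2 (-0.998 ± 0.183 (SE)), Lgr5 (-0.43 ± 0.10 (SE)) and Smoc2 (-0.31 ± 0.08 (SE)) were called lower in CORT. The others did not pass, with 0.23 for Olfm4, 0.21 for Slc12a2, -0.08 for Lgr5, -0.06 for Smoc2 and -0.27 for Axin2 in stress, and 0.15 for Olfm4, -0.13 for Axin2 and -0.08 for Slc12a2 in CORT.

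A ribosome contains 1 copy of most of these proteins, which are made in the cytoplasm, imported into the nucleolus and assembled with rRNA into a 40S subunit (Rps proteins), which decodes mRNA, and a 60S subunit (Rpl proteins), which joins amino acids. Their mRNAs carry a terminal oligopyrimidine (TOP) tract, a C followed by a run of C and T at the very start, through which mTORC1 signaling and LARP1 control how strongly they are translated. Control at this level would not be seen in an mRNA count. Rapidly dividing crypt cells are known for a high demand for ribosomes.

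The start of the transcript is shown because the TOP tract is the sequence feature these genes are known for. Shown are all RefSeq starts of the members with an entry among the 5 higher ones with the smallest p in CORT vs vehicle (Rps21, Rps12, Rps24, Rps27l), the 5 lower ones in stress vs Ctrl (Rps21, Rpl36a), and the 3 that varied most (Rpl13a, Rpl41) or least (Rpl10a, Rpl10, Rpl7a) over the libraries. Each run holds 15 bases before and 15 bases from the RefSeq start on, 5′ to 3′ on the gene's strand (RefSeq, GRCm38.p6), and capitals mark its longest stretch of C and T.
Rps21 (chr2:180257364-180257393, + strand): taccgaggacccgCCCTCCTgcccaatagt
Rps21 (chr2:180257434-180257463, + strand): ggacaagtgagcaggtaggCCTCggtgcgg
Rps12 (chr10:23787195-23787224, - strand): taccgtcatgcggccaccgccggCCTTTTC
Rps24 (chr14:24490663-24490692, + strand): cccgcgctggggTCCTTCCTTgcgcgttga
Rps24 (chr14:24490738-24490767, + strand): tccggcgccgtagccatcatggtgagTCTC
Rps27l (chr9:66946071-66946100, + strand): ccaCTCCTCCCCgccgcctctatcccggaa
Rps27l (chr9:66946398-66946427, + strand): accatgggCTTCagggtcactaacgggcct
Rpl36a (chrX:134585639-134585668, + strand): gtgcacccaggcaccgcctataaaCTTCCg
Rpl13a (chr7:45128731-45128760, - strand): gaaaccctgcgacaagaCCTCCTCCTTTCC
Rpl41 (chr10:128549154-128549183, - strand): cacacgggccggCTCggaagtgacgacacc
Rpl10a (chr17:28328456-28328485, + strand): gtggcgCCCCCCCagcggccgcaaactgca
Rpl10a (chr17:28328550-28328579, + strand): gCTCTatttgagcgcatgcgcaaagcgctc
Rpl10 (chrX:74270801-74270830, + strand): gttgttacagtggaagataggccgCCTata
Rpl7a (chr2:26910792-26910821, + strand): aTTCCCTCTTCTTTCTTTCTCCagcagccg
The stretch spans the annotated start in Rpl7a, where it is 21 bases long, and at the first listed starts of Rps21 and Rps24. It lies after the start in Rps12, Rpl36a and Rpl13a, is 3 bases long in Rpl41 and Rpl10, and is 4 bases long at the second listed starts of Rps21, Rps24, Rps27l and Rpl10a. The windows thus differ widely among members. Of the 60 members with an entry in the RefSeq table, 25 (41.7%) had a C followed by 7 or more C or T within these 30 bases, against 10.8% of all 27025 genes in it. The letters CGGAAG, the core recognized by ETS factors, were found on either strand of the 300 bases around the start in 41 of the 60 members (68.3%) and in 18.8% of all genes. AAGATGG, which is part of the YY1 motif, was present in 9 of the 60 members (15%) against 7.28% of all genes, and TATAAA in 6 (10%) against 15.7%. These matches describe the sequence and were not read as binding sites.

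Ribosomal protein mRNAs were among the most abundant in the ISCs. Levels between genes were compared as the authors' FPKM, which is per length. Across the 12 libraries 64 of the 82 members were among the 100 genes with the highest mean FPKM, and 57 had a mean FPKM above 1000. The median over the 77 members above 100 FPKM was 1369, and the 31 of the 40S subunit (median 1373) and the 46 of the 60S subunit (median 1318) had closely similar levels. The highest was Rplp1 at 3912, followed by Rps26 at 2981, Rps2 at 2765, Rplp0 at 2581 and Rpl13 at 2497. Rplp1 was the fourth most abundant of all genes by this measure. Rplp0, Rplp1 and Rplp2 form the stalk that recruits elongation factors to the 60S subunit, and Rplp2, at 1000, stood lower than the other two. Rpsa, a 40S protein also known as the laminin receptor, had a mean FPKM of 1369. Rps6, the 40S protein phosphorylated by S6 kinase, was at 1847, and Rps27a, which is made as a fusion to ubiquitin, was at 891. Of the genes outside the symbol rule, Rps3a1 was at 1949, Fau at 1288 and Rpl36al at 382.

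**Figure D1:**
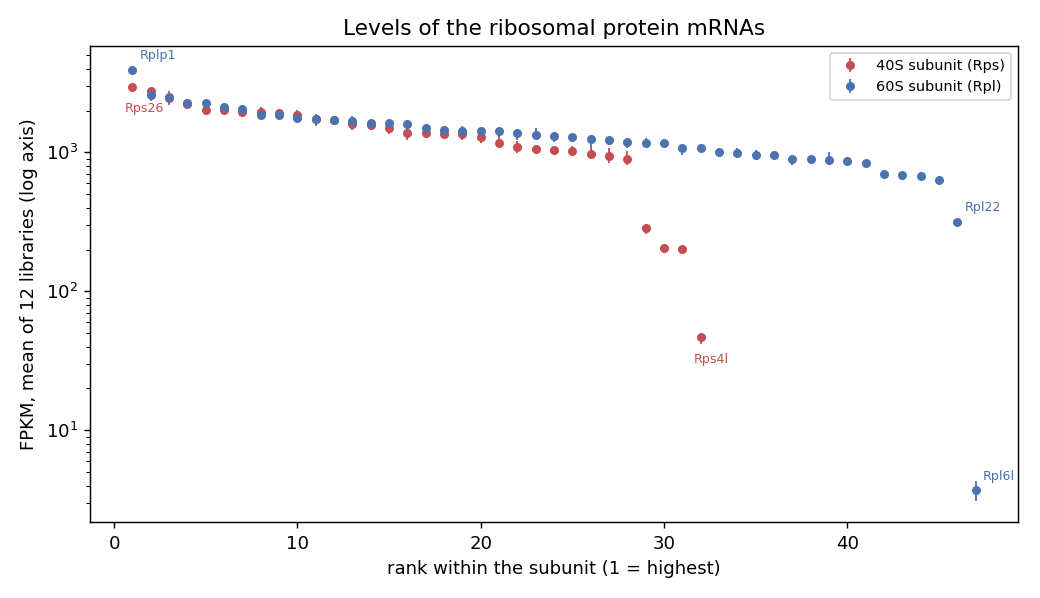
FPKM of 79 ribosomal protein mRNAs on a log axis against rank within the subunit. Points are means of 12 libraries and bars span the lowest to the highest of the 4 group means. All but a few members lie within a narrow band, with Rps4l and Rpl6l far below it.

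Below that band in FPKM lay a few main forms, Rps15a (203), Rps20 (284) and Rpl22 (315), and the paralogs of a main form. By count these main forms were not low. Rps15a, Rps20 and Rpl22 had mean counts of 24398, 29692 and 18356, against 31458 for Rps15 at 2027 FPKM. Their FPKM was thus low through the length it is divided by, and whether that length fits their mRNAs was not tested. Rpl3l (a muscle form of Rpl3), Rpl10l and Rpl39l (testis forms of Rpl10 and Rpl39) failed the filter. Rpl10l had 0 counts in all 12 libraries, Rpl39l had 4 counts in CORT 5 and 0 elsewhere, and Rpl3l had 4 and 7 counts in vehicle 3 and vehicle 5 and 0 elsewhere. At up to 4 counts per read pair, these values stay under the 12 counts (3 read pairs) that a count of 0 allows in a library, which is for counting error only. Their main forms Rpl3, Rpl10 and Rpl39 had mean FPKM of 1726, 1630 and 872. Rpl6l, at 3.69, was low beside Rpl6 at 1417, and Rps4l, at 46.6, was low beside Rps4x at 1912. Their counts are less certain if near-identical copies share reads, which was not tested. Rps27l, known as a target of p53, was at 202 against 1749 for Rps27. Among related genes outside the rule, Rpl22l1, the paralog of Rpl22, reached 261 against 315 for Rpl22, and Rpl7l1 reached 47.7.

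The members varied together from library to library. Over the 12 libraries the median correlation between 2 members was 0.87 (Pearson's r over 3081 pairs, on log2 CPM), against 0.72 within 76 genes of oxidative phosphorylation, 0.46 within 77 mitochondrial ribosomal proteins and 0.21 within 32 initiation factors. These are descriptions, since all pairs share the same libraries and their scaling. The lists also differ in abundance. Per library the members held 8.91% to 11.7% of counts, the initiation factors 1.05% to 1.13% and the mitochondrial ribosomal proteins 0.42% to 0.52%. The part of abundance in these correlations was not tested. The median SD of a member over the 12 libraries was 0.17 on the log2 scale against 0.23 for all genes tested, and it dropped to 0.06 once the median of the members in each library was taken off. In all, 57 of the 79 members had a correlation above 0.9 with the median of the other members. Rps29, a small 40S protein, had the lowest at 0.34, followed by Rps4l at 0.54, Rps28 at 0.57, Rps27l at 0.58 and Rpl38 at 0.65.

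The share of the members differed between libraries of the same group. The members held 10.4%, 10.8% and 10.2% of all counts in the Ctrl libraries. They held 8.91% in stress 1+2, 10.95% in stress 3 and 8.98% in stress 4+5+6. In vehicle 3, 5 and 6 the share was 9.15%, 10.2% and 11.5%, and in CORT 2, 4 and 5 it was 11.7%, 10.1% and 11.1%. The Ctrl libraries lay close to each other, 2 stress libraries were the lowest of all 12, and the ranges of stress and Ctrl and of vehicle and CORT overlapped. A share of counts cannot tell fewer cells of a type from less RNA per cell. Per gene, 0 of the 79 members were above their own mean in stress 1+2 and 1 in stress 4+5+6, but 78 were above it in stress 3. In vehicle 3 it was 2 members, in vehicle 5 it was 18, and in vehicle 6 it was 77. In CORT 2, 4 and 5 the counts were 76, 41 and 78. The median member stood 0.22 log2 units below its mean in both stress 1+2 and stress 4+5+6 and 0.12 above it in stress 3, whereas the median of all genes stayed within 0.02 of 0 in every library. These library medians spanned 0.34 log2 units within stress, 0.36 within vehicle, 0.22 within CORT and 0.10 within Ctrl, while their group means ran from -0.11 in stress to 0.12 in CORT. The SD of the library medians was 0.05 over the Ctrl libraries and 0.19 over the stress libraries. For vehicle it was 0.18, and for CORT it was 0.11 (n = 3 each). The medians of the 40S and of the 60S members lay within 0.05 log2 units of each other in all 12 libraries, with the widest gap in CORT 4 (0.04 and -0.004).

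**Figure D2:**
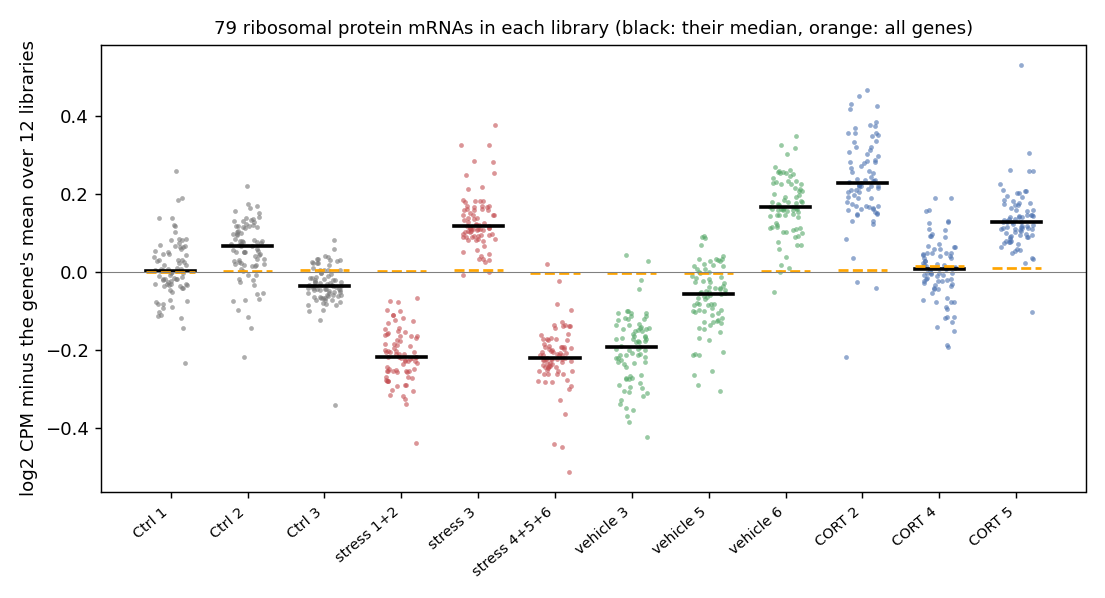
Log2 CPM of each of 79 members minus its mean over 12 libraries, 1 point per member, with the median of the members (black) and of all genes tested (orange). The clouds shift as a whole: stress 1+2, stress 4+5+6 and vehicle 3 lie below 0, and stress 3, vehicle 6, CORT 2 and CORT 5 lie above it.

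Whether 1 exposure to restraint changed these mRNAs in ISCs was asked by comparing stress with Ctrl. None of the 79 members passed the test (edgeR's quasi-likelihood test, Benjamini-Hochberg adjusted p below 0.05 over 13722 genes), where 1.89% of all genes tested did. DESeq2 also called 0 members, where it called 373 genes higher and 184 lower. At an unadjusted p below 0.05 there were 3 members, all lower, where 6.79% of all genes were lower at this p. The median log2 fold change was -0.11, with 69 members lower and 10 higher, against -0.003 for all genes tested. It was -0.11 for the 32 members of the 40S subunit and -0.12 for the 47 of the 60S subunit. The single values ran from -0.34 to 0.26.

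Rps29 (chr12:69157722-69159186 in the files, mm10) had the lowest value. Its CPM was 493, 480 and 419 in Ctrl 1, 2 and 3 and 391, 419 and 289 in stress 1+2, 3 and 4+5+6. The groups overlapped only through stress 3, less than 1 CPM above Ctrl 3, and stress 4+5+6 was far below all others. The log2 fold change was -0.34 ± 0.13 (SE), with an adjusted p of 0.253 (edgeR), and without stress 4+5+6 it was -0.19. Rpl30, of the 60S subunit, had a log2 fold change of -0.23 ± 0.10 (SE) with an adjusted p of 0.328 (edgeR). Rpl36a stood at -0.22 ± 0.11 (SE) with 0.383 (edgeR). With 1 library left out, Rpl30 ran from -0.32 to -0.16 and Rpl36a from -0.36 to -0.15. Both were lowest without stress 3 and were then called, with adjusted p of 0.0411 and 0.0223 (edgeR). Rps21, another small 40S protein (chr2:180257377-180258445), was the only member whose stress libraries all lay below all Ctrl libraries, where 10.2% of all genes did so. Its CPM was 598, 566 and 598 in Ctrl and 485, 565 and 502 in stress 1+2, 3 and 4+5+6, the highest stress value being within 1 CPM of the lowest Ctrl value. The log2 fold change was -0.18 ± 0.08 (SE) with an adjusted p of 0.353 (edgeR). No member had all stress libraries above all Ctrl libraries, against 10.2% of all genes. The members with positive values that had the smallest p were Rps4l (0.26 ± 0.16 (SE)), Rps27l (0.10 ± 0.11 (SE)), Rpl9 (0.09 ± 0.11 (SE)), Rps24 and Rps27a, with 0.495 as the smallest adjusted p among them (edgeR). Without stress 3 the values of Rps27l, Rpl9, Rps24 and Rps27a were below 0 (-0.016, -0.040, -0.106 and -0.032), and with 1 library left out that of Rps4l ran from 0.099 to 0.400.

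Among the ribosomal protein genes outside the rule, Rps3a1, Rpl36al and Fau had log2 fold changes of -0.10, -0.11 and -0.13. The paralogs Rpl22l1 and Rpl7l1 had 0.20 ± 0.11 (SE) and -0.18 ± 0.11 (SE), with adjusted p of 0.446 and 0.479 (edgeR). Rplp0, Rplp1 and Rplp2 had -0.13, -0.12 and -0.18, and Rpsa and Rps6 both had -0.12, with no adjusted p under 0.492 (edgeR) among these 5. The result depended on stress 3. Without it, 30 members (20 of the 60S and 10 of the 40S subunit) were lower at an adjusted p below 0.05 (edgeR), against 2.04% of all genes, and the median was -0.23. Without the 2 libraries with joined numbers the median turned to 0.12 with 71 of 79 members higher, and 1 member, Rpl13a, was called higher, against 0.386% of all genes. The first alternative leaves 2 stress libraries and the second, chosen after seeing the data, leaves 1, whose spread was taken from the Ctrl libraries.

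Corticosterone was compared with its vehicle in other mice. Here 76 of 79 members had higher values and 3 lower, with a median log2 fold change of 0.12 against 0.01 for all genes tested. None passed the test (edgeR, adjusted p below 0.05 over 14656 genes), where 8.13% of all genes did. At an unadjusted p below 0.05 there were 9 members, all higher, where 11.2% of all genes were higher at this p. DESeq2 called 7 members higher (Rps12, Rps21, Rps24, Rps27a, Rps23, Rpl5 and Rpl9, with log2 fold changes of 0.27 to 0.40), against 6.24% of all genes it tested. The median was 0.17 for the 40S and 0.10 for the 60S members, and the single values ran from -0.01 to 0.40. The 3 members with values below 0, Rps2 and Rpl28 among them, lay within 0.02 of 0.

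The members with the smallest p were of the 40S subunit. The CPM of Rps21 was 514, 487 and 568 in vehicle 3, 5 and 6 and 640, 618 and 676 in CORT 2, 4 and 5. All CORT libraries were above all vehicle libraries, and the log2 fold change was 0.30 ± 0.09 (SE) with an adjusted p of 0.0722 (edgeR). Rps12 (chr10:23785211-23787195), with 1063, 1067 and 1340 CPM in the vehicle and 1758, 1388 and 1441 CPM in the CORT libraries, was also separated, by 0.40 ± 0.13 (SE) and an adjusted p of 0.0931 (edgeR). The gap between its groups was small, since vehicle 6 came close to CORT 4. Rps27a, the ubiquitin fusion, was at 551, 593 and 767 CPM in vehicle and at 923, 750 and 785 in CORT. Vehicle 6 lay above CORT 4, so the groups overlapped, and the log2 fold change was 0.36 ± 0.14 (SE) with an adjusted p of 0.148 (edgeR). Rps24, a 40S protein mutated in some patients with Diamond-Blackfan anemia, had 0.37 ± 0.14 (SE) with an adjusted p of 0.155, and Rps27l had 0.23 ± 0.09 (SE) with 0.158 (edgeR). In all, 5 members (Rps12, Rps21, Rps23, Rps27l and Rpl17) had every CORT library above every vehicle library and 0 had every one below, where 14.3% and 14.4% of all genes did.

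The stalk proteins stood nearer 0, with log2 fold changes of 0.07 for Rplp0 and 0.06 for Rplp1 and Rplp2, as did Rpsa (0.03). Rps6 had 0.17 ± 0.11 (SE). Outside the rule, Rps3a1 had 0.22 ± 0.11 (SE), Fau 0.08 and Rpl36al 0.04, none past the test. Of the paralogs outside the rule, Rpl22l1 had 0.32 ± 0.12 (SE) and Rpl7l1 -0.23 ± 0.10 (SE), with adjusted p of 0.132 and 0.182 (edgeR). Without vehicle 6, 3 members (Rpl5, Rps27a and Rpl9) were called higher, against 2.75% of all genes, and the median was 0.23. Without vehicle 3 the median was 0.06 with 0 called, and with all 12 libraries in the fit Rps21 was called higher, against 3.8% of all genes.

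**Figure D3:**
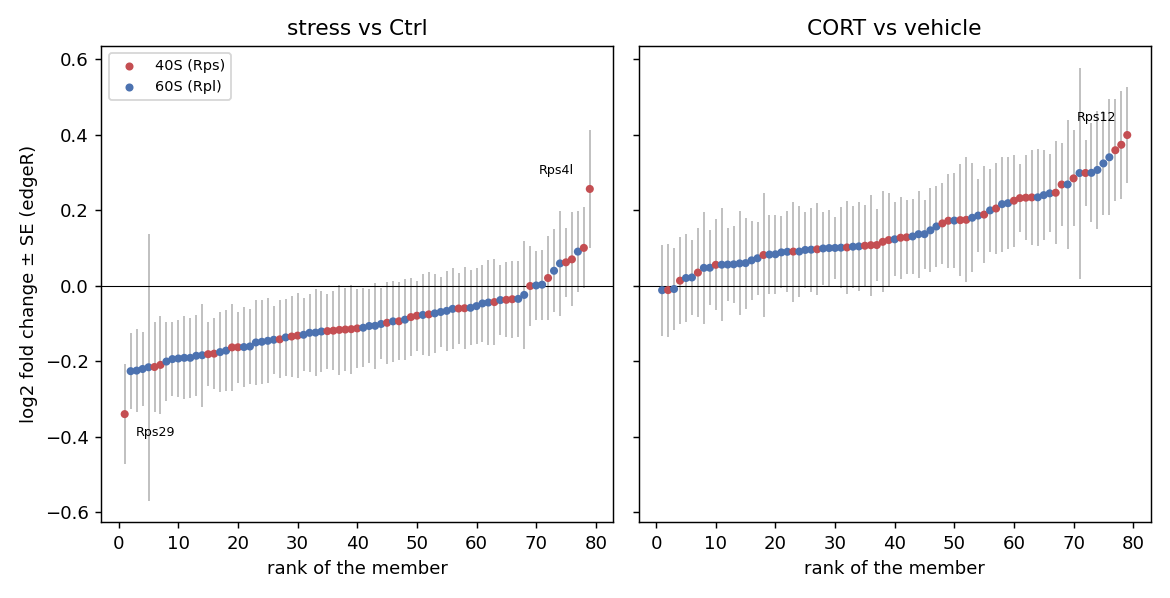
Log2 fold change of each of 79 members with its SE (edgeR), ranked within stress vs Ctrl (left) and CORT vs vehicle (right), with 40S members in red and 60S members in blue. Most members lie below 0 on the left (69) and above 0 on the right (76), and none passed an adjusted p of 0.05.

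**Figure D4:**
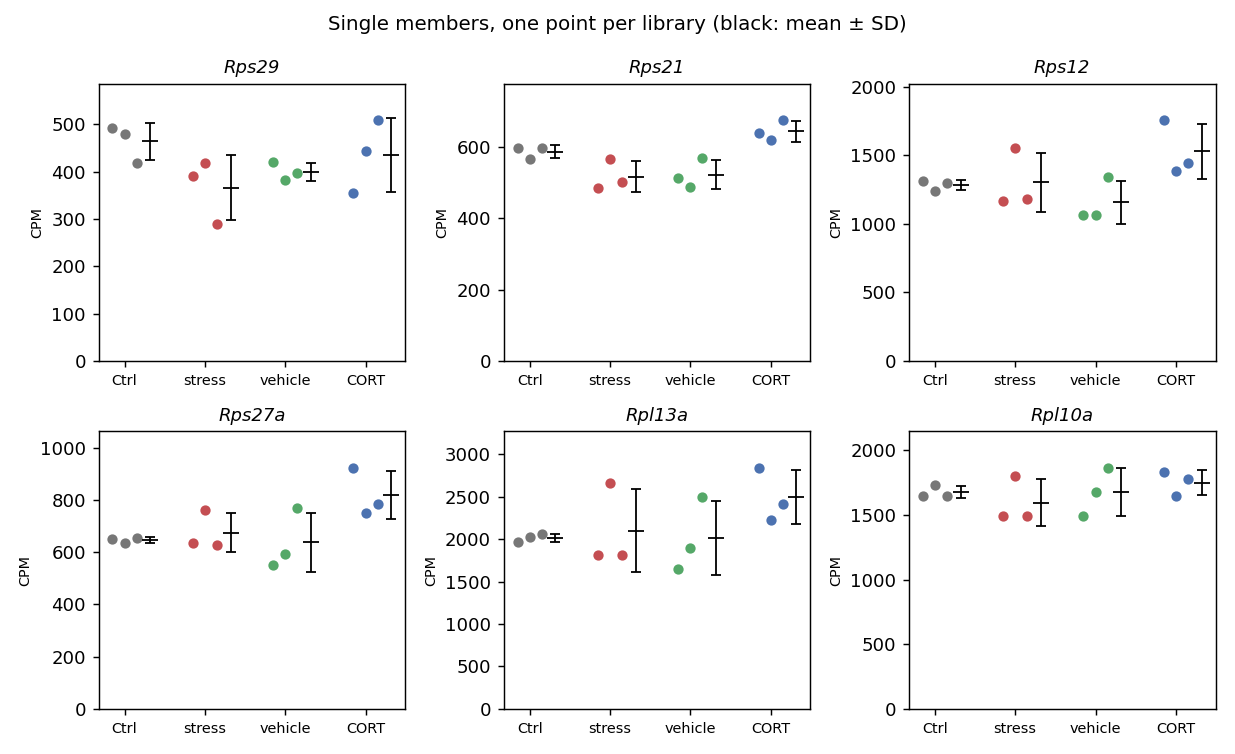
CPM of 6 members in each library, with mean ± SD of the 3 libraries of each group in black and the axis starting at 0. Rps21 is separated between vehicle and CORT, Rps29 is lowest in stress 4+5+6, and Rpl13a and Rpl10a, among the most and least variable members, overlap in all comparisons.

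The vehicle libraries were compared with the Ctrl libraries. The vehicle mice differed from Ctrl by the injection, and possibly by access to food and water or by experiment. Such differences cannot be told apart here. This comparison shares libraries with both comparisons above. The median of the members was -0.02 with 23 higher and 56 lower, and 0 passed the test (edgeR, 13642 genes), where 0.799% of all genes did. The sign of this median depended on single libraries, with 0.06 without vehicle 3 and -0.13 without vehicle 6. DESeq2 called 0 members, where it called 171 genes higher and 126 lower. With edgeR 1 member, Rps29, was lower at an unadjusted p below 0.05, as were 4.93% of all genes. Rps29 was at 420, 382 and 398 CPM in vehicle 3, 5 and 6, a log2 fold change of -0.21 ± 0.09 (SE) with an adjusted p of 0.395 (edgeR). For 0 members were all vehicle libraries above or all below the Ctrl libraries, where 8.17% and 8.15% of all genes were. Rps21, Rps12 and Rps27, the next by p, had log2 fold changes of -0.16, -0.15 and -0.13.

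The 2 responses were set against each other in a test of the difference (stress minus Ctrl) minus (CORT minus vehicle). Its median over the members was -0.26, with 78 of 79 below 0, against -0.01 for all genes tested. None passed (edgeR, adjusted p below 0.05 over 14415 genes), where 0.388% of all genes did, and DESeq2 called 1 member, Rps21, below 0, against 0.846% of all genes it tested. At an unadjusted p below 0.05 there were 7 members (Rps21, Rps23, Rps29, Rpl30, Rpl36a, Rpl37 and Rpl39), all with values below 0, against 5.47% of all genes in that direction. The difference for Rps21 was -0.48 ± 0.12 (SE) with an adjusted p of 0.0938 (edgeR), and without stress 3 it was -0.55 with 0.0293, the only member called, against 0.391% of all genes called below 0. Rps4l was the only member above 0, at 0.17 ± 0.25 (SE), and with 1 library left out it ran from 0.011 to 0.395.

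The members differed in how much they varied. Rpl10a, Rpl10 and Rpl7a, of the 60S subunit, varied least, each with an SD of 0.12 on the log2 scale over the 12 libraries. Rpl10a had 1649, 1732 and 1648 CPM in Ctrl and 1492, 1805 and 1493 in stress 1+2, 3 and 4+5+6. It had 1491, 1680 and 1867 in vehicle 3, 5 and 6 and 1830, 1645 and 1777 in CORT 2, 4 and 5. Rpl6l, at a few CPM, varied most (SD 0.30), followed by Rpl41, which encodes the shortest of the ribosomal proteins (0.25), and Rpl13a (0.25), which is also known from the GAIT complex that silences translation. The CPM of Rpl13a was 1966, 2025 and 2058 in Ctrl and 1816, 2665 and 1818 in stress. For vehicle the values were 1647, 1892 and 2498, and for CORT they were 2843, 2223 and 2419. It was highest in CORT 2 and in stress 3 and lowest in vehicle 3, the libraries in which the members as a whole were high or low.

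Of 32 initiation factors 0 were called in stress by edgeR or DESeq2, with 4 at an unadjusted p below 0.05, against 15.2% of all genes. In CORT 4 of the 32 were called, against 8.13% of all genes, and Eif4a2, an RNA helicase, rose (0.47 ± 0.11 (SE), adjusted p 0.0357, edgeR) while Eif1a, Eif1b and Eif6 fell. Eif6, which keeps 60S subunits from joining too early, had -0.36 ± 0.08 (SE) with an adjusted p of 0.032 (edgeR). None of 9 elongation and termination factors was called by edgeR or DESeq2 in stress or CORT, with 0 in stress and 2 lower in CORT at an unadjusted p below 0.05, against 15.2% (either direction) and 12.1% (lower) of all genes, and Eef1a1, the most abundant gene of the table at 7120 FPKM, had 0.12 ± 0.10 (SE) in CORT. Of 8 other mRNAs known to carry a TOP tract 1 was called higher in CORT by edgeR and 2 by DESeq2, where 3.64% and 6.24% of all genes were. Hnrnpa1 rose (0.31 ± 0.08 (SE), adjusted p 0.0477, edgeR), and the median was 0.16 with 8 of 8 above 0. In stress the median of these 8 was -0.02.

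Of 13 regulators of ribosomal protein mRNA, 1 was called in stress, 1 in CORT and 1 in vehicle vs Ctrl, where 1.89%, 8.13% and 0.799% of all genes were. Their values went both ways, with 5 above and 8 below 0 in stress and 6 above and 7 below 0 in CORT. Myc, which drives ribosome production, fell in stress. Its CPM was 256, 294 and 244 in Ctrl and 181, 196 and 196 in stress 1+2, 3 and 4+5+6, with no overlap, a log2 fold change of -0.47 ± 0.09 (SE) and an adjusted p of 0.0332 (edgeR). In CORT it had -0.55 ± 0.19 (SE) and an adjusted p of 0.112 (edgeR). Larp1, the TOP-binding repressor, fell in CORT (-0.30 ± 0.08 (SE), adjusted p 0.0442, edgeR), and its value in stress was -0.05 ± 0.08 (SE). Eif4ebp1, an inhibitor of initiation that mTORC1 phosphorylates, was higher in vehicle than in Ctrl (0.57 ± 0.11 (SE), adjusted p 0.0374, edgeR).

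The 76 genes of oxidative phosphorylation had a median of 0.21 in CORT, with 72 above 0 and 4 called higher by edgeR (Ndufb2, Cox7b, Atp5k and Ndufa4), where 3.64% of all genes were called higher. DESeq2 called 20 of them higher, against 6.24% of all genes it tested, 37 were higher at an unadjusted p below 0.05 (edgeR), against 11.2%, and 29 had every CORT library above every vehicle library, against 14.3% of all genes. In stress their median was 0.001 with 0 called by edgeR or DESeq2, where edgeR called 1.89% of all genes, and 1 was higher at an unadjusted p below 0.05, where 8.39% of all genes were. Of 77 mitochondrial ribosomal proteins, which belong to a separate ribosome inside mitochondria, 2 (Mrps18b and Mrpl36) were called lower in CORT, where 4.5% of all genes were, with a median of 0.05. In stress their median was -0.10 with 0 called by either tool, and 4 were lower at an unadjusted p below 0.05, where 6.79% of all genes were.

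Some other measures of the libraries moved with the share of the members in stress. The 6 enterocyte markers summed to 179, 202 and 191 CPM in Ctrl and to 829, 322 and 1684 CPM in stress 1+2, 3 and 4+5+6, with Fabp2 as the most abundant gene and no marker at 0 in any library. The 2 stress libraries with the most enterocyte marker RNA were those with the lowest share of ribosomal protein mRNA. In stress 5 of the 6 were called higher (median log2 fold change 3.20), where 1.3% of all genes were, and 2 of 6 goblet markers, Zg16 and Clca1, and 1 of 6 Paneth markers, Mmp7, were as well. The goblet markers summed to 501, 613 and 491 CPM in Ctrl and to 939, 504 and 1457 CPM in stress. In vehicle 3, 5 and 6 they summed to 417, 539 and 602 CPM, in the same order as the members' share, and in CORT 2, 4 and 5 to 389, 732 and 522 CPM, in the reverse order. Their part in the result was not tested. In vehicle and CORT the enterocyte sums lay between 125 and 191 CPM. Among these markers Fabp2 was called higher in CORT (0.46 ± 0.10 (SE), adjusted p 0.0251, edgeR), with 66.2, 74.1 and 85.5 CPM in vehicle 3, 5 and 6 and 96.3, 109.5 and 106.5 CPM in CORT 2, 4 and 5. All CORT libraries were above all vehicle libraries for this gene, whose part in the result was not tested. The Paneth markers summed to 173, 136 and 158 CPM in Ctrl and to 263, 169 and 248 CPM in stress 1+2, 3 and 4+5+6. These stress sums lay in the reverse order of the members' share, and 6 of 6 log2 fold changes were above 0. In vehicle the Paneth markers summed to 186, 199 and 211 CPM, in the same order as that share. They summed to 104, 116 and 104 CPM in CORT, with 4 of 6 called lower (edgeR), where 4.5% of all genes were. Their part in the result was not tested.

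Blood cell markers were at or near 0, with 3 to 6 of 6 at 0 in each library and a sum of at most 1.73 CPM. Stromal and endothelial markers summed to at most 4.10 CPM. Of the 2 tested in CORT, Pecam1 was called higher (2.12 ± 0.54 (SE), adjusted p 0.0427, edgeR), where 3.64% of all genes were. Among 3 tuft markers tested, Pou2f3 was called lower in CORT (-1.14 ± 0.27 (SE), adjusted p 0.0317, edgeR), where 4.5% of all genes were. Their part in the result was not tested. Mitochondrially encoded genes took 3.62% and 2.91% of the counts in stress 1+2 and 4+5+6 and 1.91% in stress 3, and 1.81%, 3.59% and 2.67% in CORT 2, 4 and 5. Within each of the 4 groups the libraries ranked by this share in the reverse order of the members' share. With these genes left out of the total the members held 10.6%, 11.01% and 10.5% in Ctrl 1, 2 and 3 and 9.24%, 11.2% and 9.24% in stress 1+2, 3 and 4+5+6. The part of the mitochondrially encoded genes in the result was not tested. Among genes outside the members, the 1030 with at most 1000 exonic bases had medians of 0.13 (CORT) and -0.02 (stress) for the log2 fold change, and the 1815 with 1000 to 2000 bases, a range that holds the median member (1770 bases), had 0.02 (CORT) and -0.05 (stress). For the 7151 with over 4000 they were 0.01 and 0.02. Exonic bases here join the exons of all annotated transcripts of a gene, so they can exceed the length of its mRNA. By this measure 12 of the 79 members have at most 1000 bases. Rplp1, at 2166 CPM and 3936 FPKM in Ctrl, shows a length under 1000 bases in the FPKM, while Rps2, at 3366 and 2800, shows a longer one. Members may thus belong to a shorter class than their exonic bases give, and the part of gene length was not tested.

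**Figure D5:**
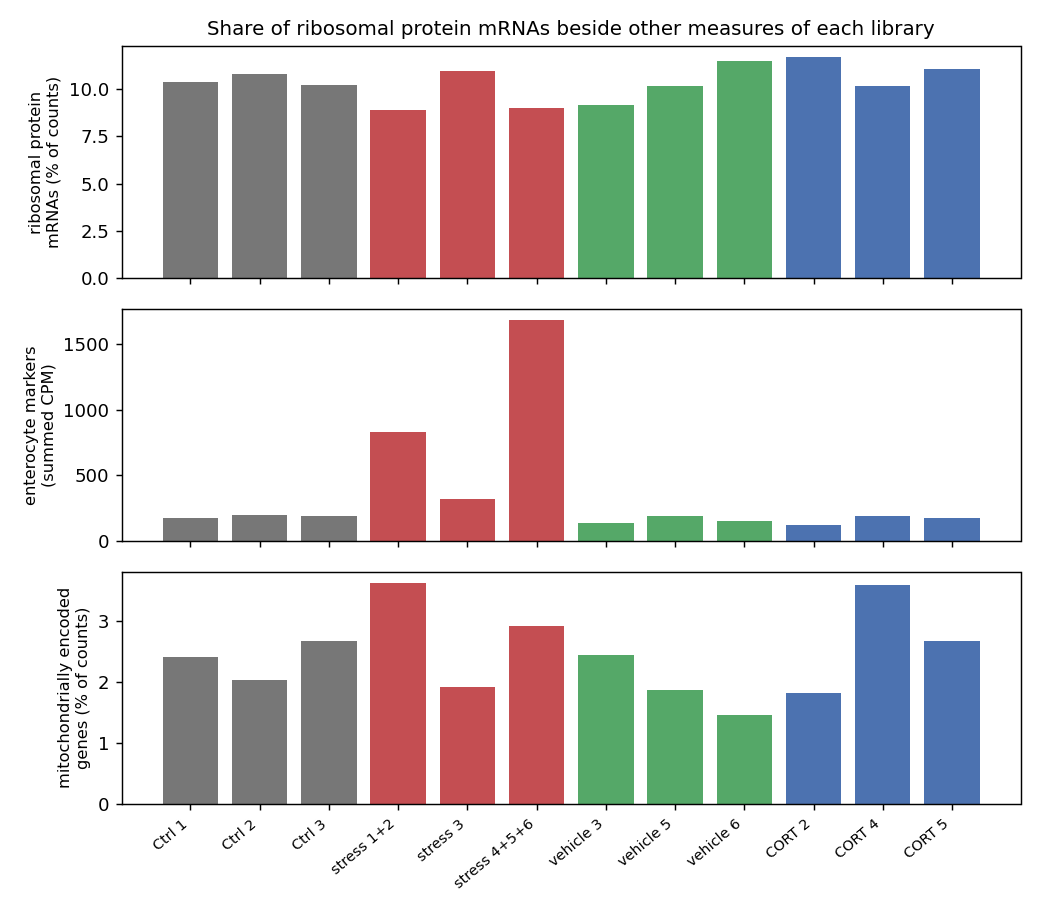
Per library, the percent of counts held by the ribosomal protein mRNAs (top), the summed CPM of 6 enterocyte markers (middle) and the percent of counts from mitochondrially encoded genes (bottom), all from 0. The lowest bars at the top, 8.91% and 8.98% in stress 1+2 and 4+5+6, stand over the highest enterocyte sums, 829 and 1684 CPM.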

How the data were processed

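Lgr5-EGFP-high cells were sorted, and 12 RNA libraries were sequenced as read pairs of 150 bp. Per the labels, the submitters' processing notes name HISAT2 2.2.1 and StringTie 2.2.1 on mm10, while the study's methods name other counting software. The authors deposited 1 table of estimated counts, which came to about 75 covered bases per count, and the authors also deposited FPKM, TPM and coverage signal for each library. The TPM was not used, and the deposited coverage signal served only to find the bases per count. No column was left without a sample (0 columns).

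Estimated counts, as whole numbers, were tested with edgeR 4.0.16 (R 4.3.3): TMM factors, the filter filterByExpr, the quasi-likelihood test and Benjamini-Hochberg adjustment over all genes tested, with a call at an adjusted p below 0.05. The SE is the log2 fold change divided by the square root of F. Levels within a gene are CPM with TMM factors over 12 libraries, and a pseudocount of 0.5 was added on the log2 scale. Alternatives were DESeq2 1.42.0, limma 3.58.1 on log2(FPKM + 1) and log2(FPKM + 0.1), other scalings and filters, thinning, and leaving out libraries. The fits were tested on simulated data.

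Members and lists were chosen with earlier results of these data known. Named were the 5 members with the highest and lowest FPKM, up to 5 higher and 5 lower by p in each comparison, the most and least variable 3, the stalk, Rpsa, Rps6, Rps27a and paralog pairs. Rps28, Rpl38, Rpl5, Rpl17, Rpl22 and a few others were named after their values were seen. Some genes that the rule would name are not reported here. Total counts ran from 15934907 to 69533214 per library. How far they limit precision was not tested, and floors cover counting error only.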

Additional observations from a re-analysis of the deposited data

Results flagged for a closer look

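No ribosomal protein mRNA passed the edgeR test of the difference between the restraint and the corticosterone response, and DESeq2 called Rps21. Among the listed genes of other cell types 2 passed with edgeR, 1 of 6 Paneth and 1 of 6 enterocyte markers, where 0.388% of all genes tested did. Mmp7, a Paneth cell protease, had a log2 difference of 2.18 between the stress and the CORT response (adjusted p 0.000688, edgeR), being higher in stress than in Ctrl and lower in CORT than in vehicle in all 3 libraries of each. Fabp1, an enterocyte fatty acid binding protein, had a difference of 4.65 (adjusted p 0.0294, edgeR). Both were also higher in vehicle than in Ctrl. Groups of 3 libraries were not searched for outlying samples.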

How the results depend on the processing

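No paired analysis was run, because with a joined number taken as 1 label the groups compared share fewer than 2 replicate numbers. If split, stress 1+2 would share its numbers with Ctrl 1 and Ctrl 2. The labels do not say that equal numbers belong together. The count of called members was 0 in all 4 comparisons and stayed 0 under every scaling, filter, thinning and FPKM alternative run. It was 7 in CORT vs vehicle and 1 in the difference of the responses with DESeq2, and 1 in CORT vs vehicle with all 12 libraries in the fit. Leaving out 1 library at a time gave 0 to 30 calls in stress vs Ctrl (30 without stress 3), 0 to 3 in CORT vs vehicle and 0 to 1 in the difference. Without both stress libraries with joined numbers, chosen after seeing the data, 1 member was called and the median was 0.12. With 1 library left out, the median ran from -0.23 to -0.04 in stress vs Ctrl, from 0.06 to 0.23 in CORT vs vehicle, from -0.13 to 0.06 in vehicle vs Ctrl and from -0.38 to -0.17 in the difference. The members held 22.9% (Ctrl), 21.3% (stress), 22.7% (vehicle) and 23.6% (CORT) of summed FPKM. Over the libraries with a single number, leaving out 1 gave -0.016 to 0.125 for Rps27l, -0.040 to 0.132 for Rpl9, -0.032 to 0.073 for Rps27a and -0.106 to 0.084 for Rps24 in stress vs Ctrl, and -0.105 to 0.085 for Rps2 and -0.080 to 0.071 for Rpl28 in CORT vs vehicle. With stress 1+2 and 4+5+6 also left out in turn, the upper ends in stress vs Ctrl were 0.185, 0.160, 0.111 and 0.162. With no filter on low counts Rps2 and Rpl28 had 0.011 and 0.0139, and without the joined libraries Rpl36a had 0.0105. The cause of these changes was not tested, beyond the fewer libraries.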

Other observations

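Processed pseudogenes of ribosomal proteins are numerous in the mouse genome and share sequence with their parents. The table lists 268 pseudogene symbols for 58 of the 82 members, counting only Rpl and Rps symbols marked with -ps. Pseudogenes under other symbols were not counted, so the shares below are lower bounds. Together such symbols held 0.07% to 0.10% of the counts of a library. For the median of these 58 members the pseudogenes held 0.30% of the parent's mean count, and for Rpl15 and Rpl17 they held 8.37% and 7.04%. The count of a gene that overlaps a member on the opposite strand reached 8.2% of the member's for Ube2s beside Rpl28 and 6.8% for Arpc5l beside Rpl35. How reads were divided among such copies and neighbors is not given in the sources used here, so the levels of these members are less certain. Other members may have pseudogenes that were not counted.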
